A study of Macaca fascicularis
Homo sapiens with 2 samples.

Results

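The hypoxia-like human pluripotent cells were 100 day 0 human cells chosen by the largest share of their own UMIs (unique molecular identifiers, counts of captured RNA molecules) on 5 genes, BNIP3, DDIT4, PFKFB4, C4orf47 and INSIG2, summed. They were 100 of 4927 human day 0 cells, or 2.03%, and the other 4827 are called the remaining cells. A human cell was a barcode with at least 90% of its UMIs on human genes, at least 2000 UMIs and 500 genes, and at most 20% mitochondrial UMIs. The series profiled pluripotent stem cells of 2 primates, both UGP2 knockout lines, with 10x Chromium 3' chemistry before and during neural induction. At day 0 the human line, H9 embryonic stem cells, was in the medium UPPS and labelled pluripotent. They were pooled in equal amounts with 56A1 cells, an induced pluripotent line of the cynomolgus macaque with the same gene knocked out. At day 7 both lines had been in a neural induction medium with 10 µM SB431542, an inhibitor of NODAL and activin receptors, and 100 nM LDN193189, an inhibitor of BMP receptors.

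Each day was 1 library, so there were no replicates and no test across cells was possible. The intervals given are exact 95% intervals that cover counting error only, and differences describe cells of these libraries. No wild-type UGP2 cells were analysed here, the labels name no clone, and the position of the edit in the gene is not given in the sources used here, so reads from the 3' end of UGP2 transcripts check nothing about the knockout. UGP2 was at 333 CPM (UMIs per 1000000 human non-mitochondrial UMIs) in the 100 cells and at 216 CPM in the remaining ones.

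Cells short of oxygen stop destroying the hypoxia-inducible factors (HIF), transcription factors whose alpha subunits are marked for degradation by oxygen-dependent prolyl hydroxylases. HIF then switches on genes for glucose uptake and glycolysis, for keeping pyruvate out of mitochondria, for removing mitochondria, and for the hydroxylases themselves as feedback. Pluripotent stem cells rely strongly on glycolysis even with ample oxygen, so many of these genes have a substantial level in them at rest.

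Of the 5 genes that chose the cells, BNIP3 encodes a mitochondrial receptor for mitophagy, DDIT4 an inhibitor of the kinase complex mTORC1, and PFKFB4 an enzyme that sets the level of a glycolysis activator. INSIG2 encodes a brake on sterol synthesis in the endoplasmic reticulum. Their values describe the choice and support nothing. BNIP3 (ENSG00000176171) had 1 to 15 UMIs per chosen cell, with a median of 5, and was at 1106 CPM in them against 86.3 CPM in the remaining cells. DDIT4 (ENSG00000168209) had 0 to 13 UMIs per chosen cell, with a median of 4, and was at 809.7 against 55.1 CPM. These 2 genes gave 46.3% and 33.9% of the UMIs that decided the ranking, and 94 of the 100 cells held UMIs of both. PFKFB4 (ENSG00000114268) was seen in 48 of the cells, C4orf47 (ENSG00000205129) in 44 and INSIG2 (ENSG00000125629) in 52, at 155, 149 and 167 CPM against 17.4, 8.75 and 17.4 CPM.

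The chosen cells form the upper end of a continuous range. The share of UMIs on the 5 genes ran from 0.143% to 0.625% in them, with a median of 0.206%. The last cell inside stood at 0.1433% and the first outside at 0.1432%. Within 10% of that limit lay 15 chosen and 31 remaining cells. The ranking rested on few molecules, from 3 to 31 UMIs per chosen cell with a median of 11, and 3 chosen cells had fewer than 5. All 5 genes were seen in 13 of the cells, 4 genes in 32, 3 in 37, 2 in 16 and 1 gene in 2. Among the remaining cells, 1826 had no UMI of any of these genes, 1529 had 1 UMI, and 227 had 5 or more.

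The chosen cells were shallower than the others, with 2018 to 10853 UMIs and a median of 5725, against a median of 7424 and a highest of 28553. They held a median of 2800 detected genes against 3376. Mitochondrial UMIs made up a median of 6.16% in them and 8.15% in the remaining cells, and ribosomal protein UMIs 15.1% and 13.4%. Cynomolgus UMIs were a median of 2.47% and 2.05%. The library as a whole held 12093 barcodes and 71377836 UMIs, and 50 of its barcodes also occurred in the day 7 library, 2 of them among the chosen cells. The part of depth and RNA content in the differences below was not tested. The gene counts, list medians and genes named by ratio were also computed with the remaining cells weighted to the depth of the chosen ones.

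The label was then read against genes that the ranking did not use. Hypoxia genes other than the chosen 5 were gathered in 7 lists with 101 genes, of which 58 were at 20 CPM or more over all human day 0 cells. In each cell the summed level of all list genes ran from 9414 to 41777 CPM in the chosen cells, with a median of 19922, and from 4989 to 28779 CPM in the remaining cells, with a median of 11545. Most of this sum came from glucose uptake and glycolysis genes, at 14194 CPM over the chosen cells and 8366 CPM over the remaining ones. These include abundant genes that differed little, such as GAPDH and LDHB, given below. The groups overlapped, yet 99 of the 100 chosen cells lay above the median of the remaining cells. Conversely, 36 remaining cells (0.746%) lay above the median of the chosen ones. Ranking all human day 0 cells by this sum put 56 of the chosen cells among the highest 100.

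**Figure D1:**
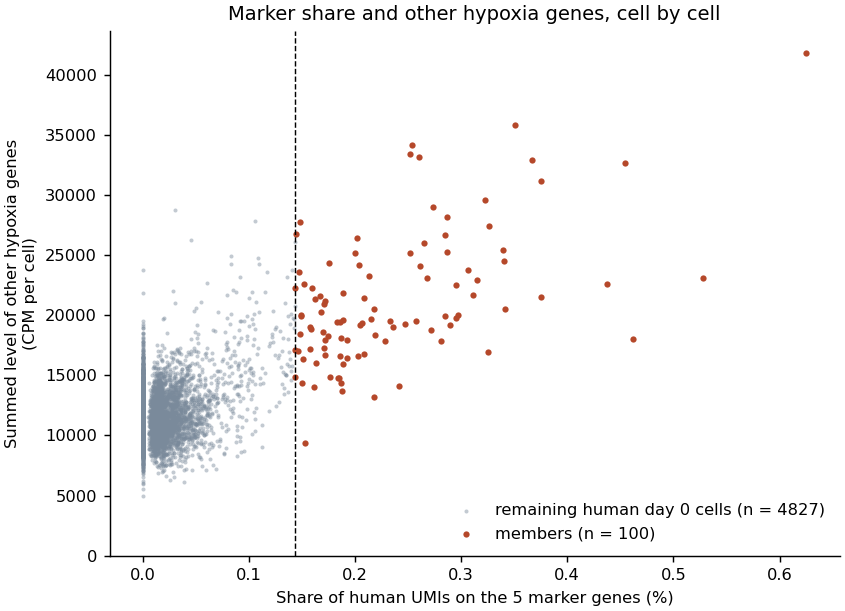
Each point is 1 human day 0 cell, with its share of human UMIs on the 5 marker genes (x axis, %) against its summed level of the other hypoxia genes (y axis, CPM), and the dashed line is the limit for the 100 chosen cells. Chosen cells (red, members in the key) had a median of 19922 CPM and remaining cells (grey) 11545 CPM, and the cloud is continuous across the limit.

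Over all genes, 7532 reached 20 CPM over all human day 0 cells with the 5 chosen ones left out. Of these, 71 were at least 2-fold higher in the chosen cells, which is 0.943%, and 181 were at least 2-fold lower, which is 2.40%. The counting interval lay above 1 for all 71 higher genes and below 1 for 159 of the 181 lower ones. A gene was counted by the ratio of CPM + 1 in both groups, and its log2 is given for lists. The ratios of single genes are of CPM itself. The median log2 ratio over the 7532 genes was -0.09. Rescaling to that median gave 98 higher and 132 lower genes, so the split between the directions depended on the scale. The minimum level also bears on the split. It was taken over all cells, with 33713044 UMIs from remaining and 510070 from chosen cells. Genes high only in the chosen cells could therefore fall under it.

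Of the 58 hypoxia genes, 21 were at least 2-fold higher (36.2%, against 0.943% of all genes). At least 2-fold lower were 2 (KDR and KLF7), against 2.40% of all genes, and 35 lay between. KLF7 had 5 UMIs in the chosen cells, and its interval of 0.147 to 1.07 included 1. Their median log2 ratio was 0.72, against -0.09 for all genes. These 21 made up 29.6% of the 71 higher genes. The lists were written with earlier results of these data known, so their counts are descriptions and not independent evidence.

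Of the genes of glucose uptake and glycolysis, 8 of 21 were at least 2-fold higher, against 0.943% of all genes. None was 2-fold lower, against 2.40% of all genes, so that count is near the background. The median log2 ratio was 0.77. SLC2A1, the main glucose transporter of most cells, was at 318 CPM against 81.9 CPM, a ratio of 3.88 (3.29 to 4.55). LDHA, which turns pyruvate into lactate, was at 1651 against 434 CPM, a ratio of 3.81 (3.55 to 4.08). PGK1, the first ATP-yielding enzyme of the pathway, was at 1670 against 466 CPM, a ratio of 3.59 (3.34 to 3.84). In single cells LDHA ran from 0 to 4467 CPM with a median of 1509 in the chosen cells, and from 0 to 4745 CPM with a median of 384 in the remaining ones, so the difference lay in the middle of overlapping ranges. HK2, an inducible hexokinase, was at 74.5 against 30.4 CPM, PFKFB3, a relative of PFKFB4, at 78.4 against 25.6 CPM, and ENO2, an enolase, at 64.7 against 23.7 CPM.

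The same pathway was not uniformly higher. GAPDH was at 2884 against 2231 CPM, a ratio of 1.29 (1.23 to 1.36), and ENO1 at 2023 against 1209 CPM, a ratio of 1.67 (1.57 to 1.78). TPI1 had a ratio of 1.74, PKM 1.71, GPI 1.82 and PGAM1 1.49. LDHB, the lactate dehydrogenase subunit that favours the reverse reaction, was at 1598 against 1522 CPM, a ratio of 1.05 (0.978 to 1.13). Of the monocarboxylate transporters, SLC16A1 had a ratio of 0.885 (0.734 to 1.06), while SLC16A3, the lactate exporter known as a HIF target, had 24 UMIs in the chosen cells and was at 47.1 against 3.35 CPM, a ratio of 14.0 (8.64 to 21.96). SLC16A3 lay under the 20 CPM minimum over all cells and is not in the counts.

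The kinases that shut pyruvate out of the mitochondrial citric acid cycle were also high. PDK1 was at 165 against 32.2 CPM, a ratio of 5.12 (4.05 to 6.40), with UMIs in 54 of the chosen cells. PDK3 was at 251 against 99.2 CPM, a ratio of 2.53 (2.10 to 3.02). Among genes whose products act at mitochondria, BNIP3L, the paralog of BNIP3 and also a mitophagy receptor, was at 194 against 55.7 CPM, a ratio of 3.49 (2.82 to 4.27). FAM162A, a mitochondrial protein induced by HIF, was at 643 against 159 CPM, a ratio of 4.04 (3.60 to 4.52). The mitophagy receptor FUNDC1 had a ratio of 0.838 (0.517 to 1.29), and HIGD1A, a respiratory chain protein counted among hypoxia genes, was lower at 64.7 against 116 CPM.

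Mitochondrially encoded transcripts were lower as a whole, at 6.14% of human UMIs against 8.23%, a ratio of 0.746 (0.738 to 0.754). The ratio varied by transcript, from 0.473 (0.303 to 0.705) for MT-ATP8, on 24 UMIs, and 0.492 (0.421 to 0.571) for MT-ND5 to 1.13 (0.908 to 1.39) for MT-ND6, on 91 UMIs. Among the better counted transcripts, MT-CO2 had a ratio of 0.556 (0.539 to 0.575) and MT-CO1 of 0.903 (0.880 to 0.926). Nuclear genes of the respiratory chain did not share this difference in size. Their median log2 ratio over 38 genes was -0.05, and it ranged from -0.14 to 0.04 over the alternatives. None of the 38 was 2-fold higher or lower, against 0.943% and 2.40% of all genes. The mitochondrial ratio was itself short of 2-fold, so this count cannot separate the 2 sets.

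Enzymes that use oxygen themselves, or that modify collagen, had the highest median of the 7 lists. PLOD2, which hydroxylates lysines of collagen, was at 129 against 24.7 CPM, a ratio of 5.24 (4.01 to 6.73), and P4HA1, the catalytic subunit of collagen prolyl hydroxylase, at 255 against 57.9 CPM, a ratio of 4.40 (3.66 to 5.26). Counted with the histone demethylases of the same oxygenase class, 5 genes had a median log2 ratio of 1.43. At least 2-fold higher were 3 of the 5 and none was lower, against 0.943% and 2.40% of all genes. The third was KDM4B, at 88.2 against 32.2 CPM, and KDM4C had a ratio of 1.65. KDM3A and P4HA2 lay under the minimum, with ratios of 4.27 (2.93 to 6.05) and 5.47 (3.41 to 8.37). P3H2, a collagen prolyl 3-hydroxylase that is on none of the lists, was at 325 against 92.3 CPM, a ratio of 3.53.

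Genes of the oxygen-sensing machinery itself stood apart from its targets. HIF1A was at 114 against 150 CPM, a ratio of 0.756 (0.573 to 0.979), ARNT, its partner, had a ratio of 0.652 (0.324 to 1.17), and VHL, which marks HIF for degradation, 1.15 (0.764 to 1.67). CITED2 had a ratio of 1.35 (0.829 to 2.07), HIF1AN 1.25 (0.711 to 2.04) and HIF3A 1.19 (0.646 to 2.00). EGLN3, the prolyl hydroxylase known as a HIF target, was the exception at 60.8 against 22.2 CPM, a ratio of 2.74 (1.85 to 3.92). It was the single gene of 7 in this list that was 2-fold higher, and none was lower, against 0.943% and 2.40% of all genes. Of the 7, 5 lay above 0 in log2 ratio, against 40.5% of all genes. The median of the list was 0.24, and -0.05 without cluster 3, described below. The list held 15 genes, and those under the minimum level are in no count. Among them ANKRD37 and MXI1 were further apart. Both were leading genes of cluster 6, described below, and they do not stand for the rest. ANKRD37 had 32 UMIs and was at 62.7 against 3.83 CPM, a ratio of 16.4 (10.8 to 24.3), and MXI1, a MYC antagonist, had 49 UMIs and was at 96.1 against 16.4 CPM, a ratio of 5.86 (4.28 to 7.85).

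Secreted and angiogenic genes differed less. IGFBP2, an insulin-like growth factor binding protein, was at 1106 against 296 CPM, a ratio of 3.73 (3.42 to 4.07). It was the single gene of 7 that was 2-fold higher and KDR the single one lower, against 0.943% and 2.40% of all genes. ADM, a vasodilator peptide, was at 106 against 54.3 CPM, a ratio of 1.95 (1.46 to 2.56). VEGFA, the best known angiogenic HIF target, was below the minimum with 11 UMIs, at 21.6 against 7.09 CPM, a ratio of 3.04 (1.498 to 5.54). The receptor KDR had 8 UMIs, a ratio of 0.472 (0.203 to 0.934). Of the remaining hypoxia genes, HILPDA, a lipid droplet protein, was at 247 against 72.4 CPM, TMEM45A at 122 against 31.0 CPM and WSB1, part of a ubiquitin ligase, at 337 against 132 CPM.

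UGP2, knocked out in these cells, encodes the enzyme that makes UDP-glucose for glycogen, and the genes around it were read for that reason. UGP2 transcripts had a ratio of 1.54 (1.32 to 1.79), with a median of 315 CPM per chosen cell and 167 CPM per remaining cell. PGM1, which feeds glucose-1-phosphate to that enzyme, was at 133 against 38.8 CPM, a ratio of 3.44 (2.65 to 4.39). GBE1, the glycogen branching enzyme and a known HIF target, was at 118 against 21.5 CPM, a ratio of 5.49 (4.14 to 7.14). These were the 2 of 17 genes of glycogen and UDP-glucose metabolism that were 2-fold higher, against 0.943% of all genes. None was 2-fold lower, against 2.40% of all genes, which in 17 genes is the background. The median log2 ratio was -0.02. GYG1, which primes glycogen, had a ratio of 0.771 (0.439 to 1.26), and GYS1, glycogen synthase, was under the minimum at 15.7 against 18.9 CPM.

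The 20 genes named by ratio among those not used for the ranking included 12 of the hypoxia lists, all given above. Of the other 8, NPTX1, a secreted neuronal pentraxin, had the highest ratio, at 112 against 19.4 CPM, but its 57 UMIs came from 20 cells. PRELID2 was at 218 against 42.8 CPM, a ratio of 5.08 (4.15 to 6.17), ADAMTS20, a secreted metalloprotease, at 173 against 37.8 CPM, and DNAH11, a dynein heavy chain, at 90.2 against 19.5 CPM. IGFBP5, a relative of IGFBP2, was at 108 against 25.5 CPM and GREB1L at 151 against 40.4 CPM. Most of their UMIs in the chosen cells, 40 of 55 for IGFBP5 and 67 of 77 for GREB1L, came from cluster 3, described below. Within cluster 3 their ratios were 1.49 (1.06 to 2.05) and 1.76 (1.35 to 2.25). Without cluster 3, IGFBP5 had a ratio of 16.4 (8.68 to 28.99) on 15 UMIs, at 34.2 against 2.09 CPM, and GREB1L of 3.11 (1.47 to 5.81) on 10 UMIs.

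The 10 genes with the lowest ratios included 2 that respond to growth factor signalling. DUSP6, a phosphatase that feeds back on the kinase ERK, had 14 UMIs in 13 of the chosen cells and was at 27.5 against 161 CPM, a ratio of 0.171 (0.0934 to 0.287). ETV4, a transcription factor downstream of FGF signalling, had 8 UMIs and was at 15.7 against 56.1 CPM. A list of 20 FGF and ERK feedback genes was written after these values were seen. Of the 16 above the minimum level, 4 were at least 2-fold lower (DUSP6, DUSP5, SPRY4 and ETV4), against 2.40% of all genes, none was higher, and the median log2 ratio was -0.54. DUSP6 and ETV4 prompted the list, so the count supports nothing. ETV5 had a ratio of 0.536 (0.292 to 0.902), the receptor FGFR1 1.13 (0.977 to 1.29) and its ligand FGF2 0.756 (0.534 to 1.04). ID3, a target of BMP signalling, was at 106 against 288 CPM, a ratio of 0.368 (0.276 to 0.481), while ID1 had a ratio of 0.837 and ID2 1.61.

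Other genes of the lowest 10 had few UMIs. SLIT2, a secreted guidance factor, had 2 UMIs in the chosen cells, at 3.92 against 45.4 CPM, a ratio of 0.0863 (0.0104 to 0.312). ADCY2, an adenylate cyclase, was the best counted, with 42 UMIs at 82.3 against 258 CPM, a ratio of 0.319 (0.230 to 0.432). ATF7IP2 had 17 UMIs, CDC42EP3 10, VAV3 8, RCL1 7, PKDCC 6 and ST3GAL2 5, with ratios from 0.234 to 0.333.

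Summed together, the chosen cells held the main transcripts that mark pluripotent cells, but those of cluster 3, described below, were low in POU5F1. POU5F1 was at 1308 against 1196 CPM, a ratio of 1.09 (1.01 to 1.18), SOX2 at 349 against 270.3 CPM, a ratio of 1.29 (1.11 to 1.498), and LIN28A at a ratio of 1.06 (0.911 to 1.22). L1TD1 was lower, at 676 against 1237 CPM, a ratio of 0.547 (0.491 to 0.608), as was DNMT3B, the de novo DNA methyltransferase, at 388 against 558 CPM. NANOG had 12 UMIs, a ratio of 0.588 (0.303 to 1.03). Of 18 genes in the list 7 lay above 0, against 40.5% of all genes, and none was 2-fold higher, against 0.943%. Both counts are near the background. FOXD3, with 5 UMIs, was 2-fold lower, against 2.40% of all genes. The median log2 ratio was -0.20, between -0.29 and 0.03 over the alternatives. The pooled POU5F1 level did not hold in every cluster. The 20 chosen cells of cluster 3 had POU5F1 at 252 CPM on 18 UMIs, with SOX2 at 545 CPM and the neural gene SIX3 at 364 CPM. In clusters 1 and 6 the chosen cells had POU5F1 at 1574 and 1426 CPM. By POU5F1, the name pluripotent therefore does not describe the chosen cells of cluster 3.

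Markers of other lineages varied by list. Endoderm and mesoderm markers summed to 11.8 CPM in the chosen and 9.82 CPM in the remaining cells, with 11 of 16 genes at 0 UMIs in the chosen ones. Amnion and trophoblast markers summed to 129 against 37.4 CPM. Most of that was IGFBP5, at 108 against 25.5 CPM, the single tested gene of the list and 2-fold higher. Of its 13 genes 9 had 0 UMIs, which allows up to 5.88 CPM each, among them TFAP2A, GATA2, GATA3, CDX2 and ISL1. Neural crest and fibroblast markers summed to 163 against 282 CPM, THY1, a surface protein also found on pluripotent cells, was at 74.5 against 202 CPM, and SNAI2, TWIST1, PAX3, COL3A1 and LUM had 0 UMIs. Of 11 early neural genes above the minimum level 3 were 2-fold higher (GREB1L, FEZF1 and SIX3), against 0.943% of all genes. The early neural markers summed to 857 CPM against 507 CPM, with 4 of the 20 listed at 0 UMIs. Without cluster 3, which left 80 chosen cells, their median log2 ratio was -0.05 in place of 0.63. Of the 3 higher genes, FEZF1 then still had a ratio of 2.68 (1.63 to 4.185) on 20 UMIs. GREB1L had 3.11 (1.47 to 5.81) on 10 UMIs and SIX3 2.36 (0.280 to 8.905) on 2 UMIs. Over all genes that comparison had 70 of 7483 genes 2-fold higher (0.935%) and 205 lower (2.74%), with PGK1 at a ratio of 3.51 and DUSP6 at 0.144.

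Other stress programmes, some of which are also known to induce DDIT4, were read in the same way. Of all genes 0.943% were 2-fold higher and 2.40% lower, so in lists of this size counts near 0 are the background and no result about them. Of 20 genes of the ATF4 and unfolded protein response none was 2-fold higher or lower, with a median log2 ratio of -0.24. ATF4 had a ratio of 0.963, the asparagine synthetase ASNS 1.12, and the chaperone HSPA5 was at 409.7 against 644 CPM, a ratio of 0.636. Of 8 p53 targets 1, XPC, was 2-fold lower and none higher, and of 13 immediate early and heat shock genes none passed 2-fold in either direction, with a median of -0.39. Among 13 brake genes of PI3K signalling, FOXO and mTOR, SESN3, a sestrin that restrains mTORC1, was 2-fold higher at 122 against 47.4 CPM, and the median was -0.00. Sterol and fatty acid synthesis genes, whose brake INSIG2 is among the 5 chosen genes, had none of 28 at 2-fold. However, 23 of the 28 lay above 0, against 40.5% of all genes, with a median of 0.29. SCD, a fatty acid desaturase, had a ratio of 1.47 (1.25 to 1.70). S phase genes had a median of -0.30 over 35 genes and G2 and M phase genes 0.01 over 49.

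Shares of cells with a UMI were compared after thinning every human cell to 1800 human UMIs. As background, the human copy was read in the 2013 cynomolgus cells of the same library, thinned to 1800 UMIs of both genomes. These cells held a median of 9.003% human UMIs, and free RNA and cynomolgus reads assigned to the human copy cannot be told apart in them. A PGK1 UMI was seen in 87.0% of the chosen cells (78.8% to 92.9%), in 53.5% of the remaining cells and in 2.88% of the cynomolgus cells. Median depths before thinning were 5725, 7424 and 5718 UMIs, and the unthinned PGK1 shares were 99.0%, 92.5% and 9.29%. SLC2A1 was seen in 42.0% (32.2% to 52.3%), 11.95% and 0.944% of the thinned cells. DUSP6 was seen in 5.00% (1.64% to 11.3%) of the chosen cells, 20.5% of the remaining ones and 3.18% of the cynomolgus cells. The interval of the chosen cells included the cynomolgus value, but that value is no floor for human cells. Chosen cells held a median of 2.47% UMIs of the other species, against 9.003% in the cynomolgus cells. Whether DUSP6 was absent from the chosen cells therefore cannot be read from it. POU5F1 was seen in 84.0% and 83.2%, against a background of 25.3%.

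Each of the 5 genes was next held out of the ranking in turn, and 100 cells were taken by the other 4. BNIP3 was then at 837 CPM in the 100 cells against 90.8 CPM, a ratio of 9.22 (8.29 to 10.2), and 74 of those cells were also among the original 100. DDIT4 was at 627 against 57.8 CPM, a ratio of 10.8 (9.60 to 12.2), with 81 cells shared. PFKFB4, C4orf47 and INSIG2, when held out, had ratios of 7.47 (5.72 to 9.63), 13.7 (10.3 to 18.04) and 8.01 (6.19 to 10.2), with 92, 94 and 92 cells shared. These values are a description, since the 5 genes were picked together from these data and most of the cells stayed the same.

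Along the ranking, levels of hypoxia genes fell off gradually and not at the limit of 100. PGK1 was at 2116 CPM in ranks 1 to 50, 1348 CPM in ranks 51 to 100, 1038 CPM in ranks 101 to 200 and 635 CPM in ranks 201 to 500, against 444 CPM in the 1826 cells without a marker UMI. LDHA was at 1761, 1571, 1130 and 654 CPM in the same classes, against 415 CPM. Ranks 101 to 200, just outside, were thus between the chosen cells and the rest. DUSP6 ran the other way, from 18.7 and 33.8 CPM in the chosen classes to 103 CPM, 121 CPM and 162 CPM. The largest step of DUSP6 was at the limit, on 4 and 10 UMIs in the chosen classes and 58 in ranks 101 to 200. ID3 was at 98.1, 112, 123 and 228 CPM, against 319 CPM, so its low level extended past the limit. POU5F1 stayed between 1180 and 1365 CPM in every class.

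**Figure D2:**
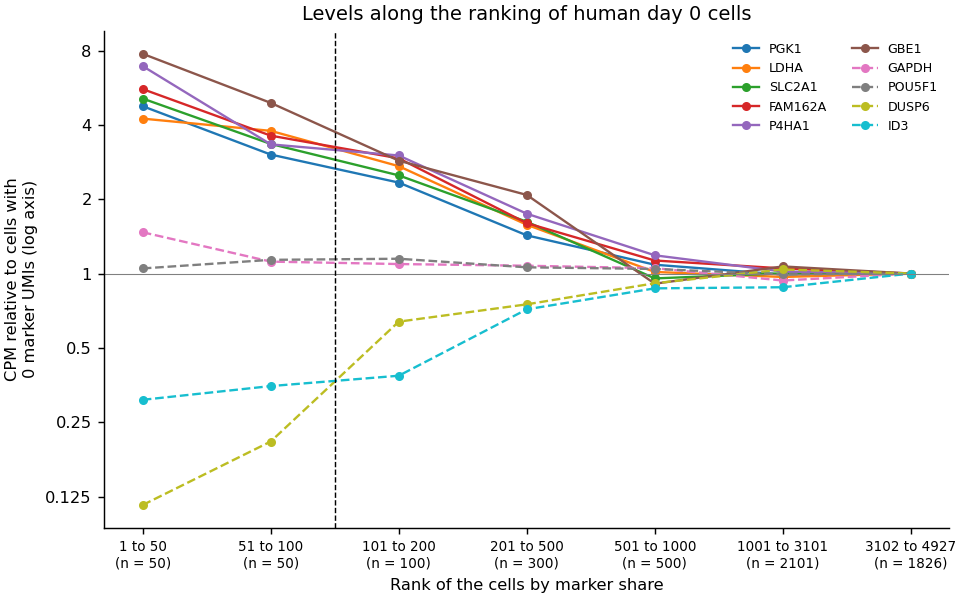
CPM of 10 genes in 7 classes of human day 0 cells ranked by marker share (x axis, with cell numbers), relative to the 1826 cells with no marker UMI (y axis, log scale); the dashed vertical line is the limit of the 100 chosen cells. Hypoxia genes (solid) decline across the limit and lie near 1 from rank 501 on, DUSP6 and ID3 lie below 1 in the first classes, and POU5F1 stays near 1.

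Clustering all human day 0 cells without the 5 genes gave 7 clusters at the resolution used. Cluster 6 held 82 cells, of which 44 were chosen cells (53.7%, 42.3% to 64.8%), against 2.03% of all human day 0 cells. Its leading genes were SLC16A3, ANKRD37, VIPR2, MXI1, GBE1, PLOD2, PRELID2, P3H2, ADAMTS20 and RIMKLA. The 5 genes were not used in clustering, but the chosen cells in the cluster were picked by them, so their level there is a description. BNIP3 was at 874 CPM in the cluster against 89.8 CPM in the other clusters, and at 631 CPM in its cells that were not chosen. The 38 cells of cluster 6 that were not chosen had a median of 19735 CPM of hypoxia list genes, against 22051 CPM in the 44 chosen ones and 11545 CPM in all remaining cells. POU5F1 was at 1428 CPM in the cluster. A cluster of this kind depended on resolution. At 0.3 there was none and the cluster with most chosen cells held 42 among 1665 cells, and at 1.0 a cluster of 120 cells held 55.

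The other chosen cells were found in every cluster but unevenly, with 20 in cluster 1, 20 in cluster 3, 7 in cluster 0, 4 in cluster 2, 3 in cluster 5 and 2 in cluster 4. They were 1.66% of the 1202 cells of cluster 1, 0.451% of 1553 in cluster 0 and 0.389% of 1028 in cluster 2. In clusters 5 and 4 they were 1.06% of 283 and 0.570% of 351 cells, against 2.03% of all human day 0 cells. Cluster 3, with 428 cells, was led by SIX3, DLK1, IGFBP5 and GREB1L, with SIX6 and DACH1 among its first 10 genes, and had POU5F1 at 455 CPM. Its 20 chosen cells were 4.67% of it (2.88% to 7.13%). Compared within cluster 3, LDHA was at 1888 CPM in the 20 chosen cells against 324 CPM in the other 408, a ratio of 5.82 (4.80 to 7.01), and PDK1 at 280 against 34.4 CPM, a ratio of 8.13 (4.69 to 13.5). SIX3 was at 364 against 367 CPM and SOX2 at 545 against 467 CPM, so these cells had the neural transcripts of their cluster together with the hypoxia genes. POU5F1 was at 252 against 461 CPM.

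Within cluster 1, led by DTL and UTF1, the 20 chosen cells had LDHA at 1763 against 511 CPM and PGK1 at 1574 against 519 CPM in the other 1182. The median log2 ratio of the 58 hypoxia genes was 0.73 within cluster 1 and 0.96 within cluster 3, and 0.16 within cluster 6, where the cells not chosen were also high. DUSP6 was low in each comparison, with ratios of 0.215 (0.0443 to 0.630), 0.298 (0.0809 to 0.769) and 0.168 (0.0316 to 0.574) in clusters 1, 3 and 6, on 3, 4 and 3 UMIs. ID3 had ratios of 0.326 (0.156 to 0.600) and 0.298 (0.148 to 0.534) in clusters 1 and 3, and of 1.12 (0.561 to 2.24) in cluster 6, where it was at 70.5 CPM in the cells not chosen.

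**Figure D3:**
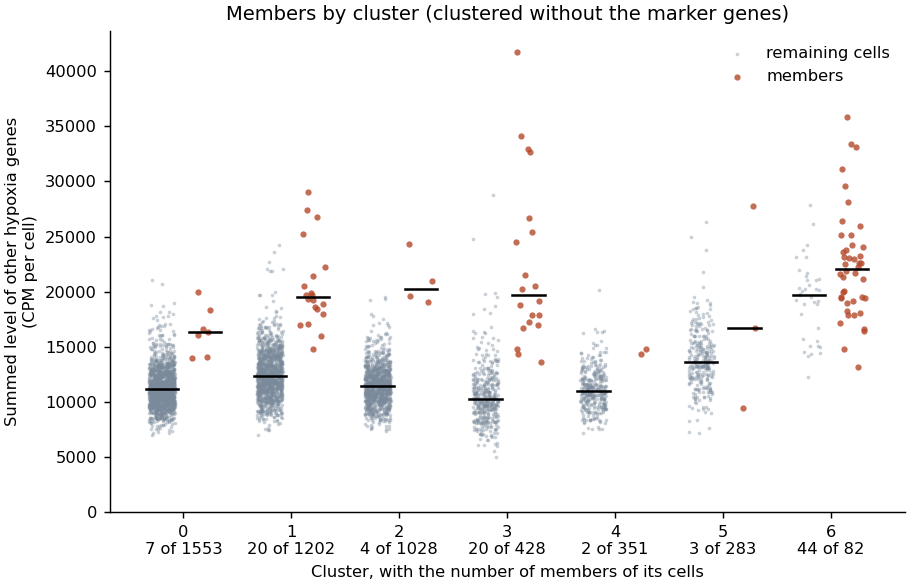
Summed level of hypoxia list genes other than the 5 markers per human day 0 cell (y axis, CPM) by cluster (x axis, with the number of chosen cells of all cells); red points are chosen cells (members), grey points remaining cells, and black lines medians of 3 or more cells. Chosen cells have medians of 19529, 19711 and 22051 CPM in clusters 1, 3 and 6, and the remaining cells of cluster 6 lie at 19735 CPM.

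The same ranking was applied to the human cells of day 7 and the cynomolgus cells of day 0, and the values are given side by side with no test of the differences. In the day 7 human cells, 100 of 7974 were taken, with a median of 11 marker UMIs, as at day 0. Of 7627 genes 9 (0.118%) were 2-fold higher and 203 (2.66%) 2-fold lower, and of 60 hypoxia genes 4 were 2-fold higher, with a median log2 ratio of 0.33. The 4 were PDK1, with a ratio of 2.40 (1.76 to 3.20), ANKRD37, HILPDA and EGLN3. LDHA had a ratio of 1.48 (1.33 to 1.63) and PGK1 of 1.37 (1.23 to 1.53). The remaining day 7 cells already had DDIT4 at 322 CPM, against 55.1 CPM in the remaining human cells of day 0.

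In the cynomolgus day 0 cells, 100 of 2013 were taken, a larger fraction, and they had a median of 5 marker UMIs. C4orf47 had no UMI in them. Of 7320 genes 7 (0.0956%) were 2-fold higher and 103 (1.41%) 2-fold lower, and of 43 hypoxia genes none was 2-fold higher or lower, with a median log2 ratio of 0.10. BNIP3 itself was at 926 against 214 CPM, while FAM162A had a ratio of 1.59 (1.29 to 1.95), P4HA1 1.54 (1.13 to 2.07), IGFBP2 1.31 (1.17 to 1.46) and SLC2A1 0.782 (0.650 to 0.934). PGK1 and LDHA could not be read, because no cynomolgus gene in the files carries those symbols. PDK1 was under the minimum in these cells, with a ratio of 1.94 (0.944 to 3.59). The hypoxia genes read thus differed between the groups (58 in human day 0, 60 in human day 7 and 43 here). Their counts and medians are therefore not of the same genes.

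**Figure D4:**
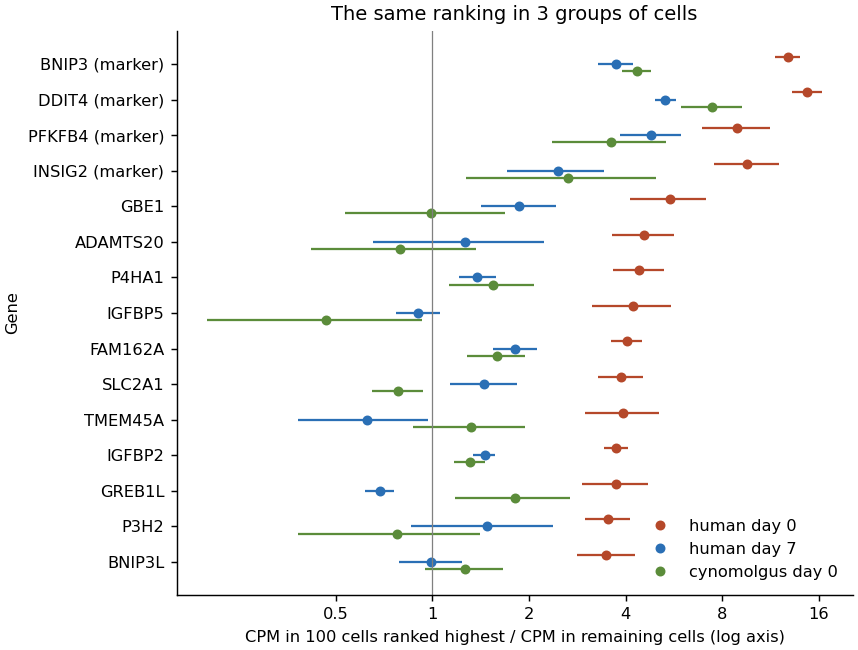
Ratio of the CPM in the 100 cells ranked highest to the CPM in the remaining cells (x axis, log scale) for 4 of the ranking genes and for named genes above the minimum level in all 3 groups, with exact 95% counting intervals. The ranking genes are high in each group because they chose the cells. Of the other genes, BNIP3L is at 3.49 in human day 0, 0.993 in human day 7 and 1.27 in cynomolgus day 0 cells. FAM162A is at 4.04, 1.82 and 1.59 in the same order, and its intervals, like those of P4HA1 and IGFBP2, lie above 1 in all 3 groups. SLC2A1 lies below 1 in cynomolgus cells.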

How the data were processed

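The deposited matrices hold raw UMI counts per gene and barcode. Per the file headers they were made by the authors with Cell Ranger 7.1.0, whereas version 7.2.0, with GRCh38, stands in the submitters' processing notes. Gene prefixes in the files name GRCh38 (20669 genes) and Macaca_fascicularis 6.0 of Ensembl release 107 (22504 genes). How reads were mapped is not given in the sources used here. No genome was used, so no coordinates or sequences are given.

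Own UMIs were taken as all human-genome UMIs of a cell, and ties in the ranking were settled by barcode order. Counts were summed over cells and scaled to CPM of human non-mitochondrial UMIs, 510070 in the chosen and 33713044 in the remaining cells, so that 1 UMI was 1.96 CPM in the chosen cells. Genes needed 20 CPM over all human day 0 cells, and list ratios used a pseudocount of 1 CPM. Intervals are exact Poisson, conditional binomial or binomial (Clopper-Pearson) at 95%. Where no UMI was seen, the floor was 3 UMIs. No doublet caller was run and no doublets were removed, so doublets of human cells may be present. Clusters used 2000 variable genes, 30 components, 15 neighbours and Leiden resolution 0.5.

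The chosen genes, the lists and the rules were set with earlier results of these data known. The FGF and ERK list and a list of BMP targets and ID genes were added after values were seen, and FAM162A, a mitochondrial protein, was then taken off the oxygenase list. The BMP list had 1 of 3 genes (ID3) 2-fold lower and a median of -0.25. Named genes were the 20 highest and 10 lowest ratios among genes with 20 UMIs in the chosen cells or 20 expected there, leaving out mitochondrial and ribosomal protein genes, besides UGP2, the 5 markers and list members. Other genes are named as cluster leaders. Of the lists not described in the report, apoptosis regulators had 1 of 11 genes (CASP9) higher and 1 (BID) lower, NODAL and activin genes none of 8 either way, and the pH and ion list 1 gene tested and none 2-fold. The shares over all genes were 0.943% higher and 2.40% lower. Alternatives covered the species call, depth, mitochondrial limits, the number of cells, each ranking gene, weights, scaling, pseudocount, minimum level and resolution. The steps were tested on simulated data. The software was scanpy 1.11.5, leidenalg 0.10.2, scikit-learn 1.9.0, pandas 2.3.3, scipy 1.17.1, numpy 2.4.6 and matplotlib 3.10.9 under Python 3.11.15.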

Additional observations from a re-analysis of the deposited data

How the results depend on the processing

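Of 26 alternatives, 3 were chosen after seeing the data (leaving out cluster 3, leaving out the 10 highest cells, and keeping cells with 4% to 12% mitochondrial UMIs). The median log2 ratio of the hypoxia genes stayed between 0.63 and 0.88 and their count of 2-fold higher genes between 12, at a 50 CPM minimum, and 30. The 30 genes named by rank kept their direction in all 780 values, and 6 values were under 2-fold (log2): GREB1L at 0.89 and IGFBP5 at 0.73 with depth weights, IGFBP5 at 0.97 with at least 4000 UMIs, and SLIT2 at -0.88, ST3GAL2 at -0.85 and VAV3 at -0.54 with 200 cells chosen. The count of higher genes was 177 with 50 cells chosen, 45 with 200, 158 at a 10 CPM minimum, 24 at 50 CPM and 47 in cells with 4% to 12% mitochondrial UMIs. The count of lower genes was 679 with 50 cells, 45 with 200, 117 with a pseudocount of 5 CPM, 370 at a 10 CPM minimum and 46 at 50 CPM. With 50 cells or a lower minimum fewer UMIs stand behind each ratio. The early neural median was 0.18 with at least 4000 UMIs, 0.0231 with depth weights, 0.19 at a 50 CPM minimum, -0.0494 without cluster 3 and 0.10 in cells with 4% to 12% mitochondrial UMIs. The cause of these moves was not tested. Resolution 1.0 put 55 of the 100 cells in 1 cluster in place of 44. Of 681 other values, 657 stayed within the limits set. For gene counts the limit was a fixed fold change. For list medians it was the span between the medians of the lower and upper bounds of single-gene intervals. That span was wide, for example -0.49 to 1.00 for the oxygen-sensing list, so staying within it says little about stability. No paired analysis was possible because each day was 1 library. Depth limits low genes: at the minimum level a gene had 10.2 expected UMIs in the 100 cells.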
